A study of Mus musculus with 6 samples.

Results

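Il10 and Il15 encode cytokines that macrophages and microglia make, and Il10ra, Il10rb and Il15ra encode chains of their receptors. These 5 genes were chosen by symbol, with earlier results of the same IL-4 and PBS samples known, and every probe whose transcript belongs to one of them was taken. They had 6 of the 39429 probes of the array, and all 5 were among the 29752 genes or unnamed transcripts tested. The samples were cells of BV2, a mouse microglial line that was immortalized; microglia are the macrophages that reside in the brain. A group of 3 samples received recombinant murine IL-4 at 10 ng/ml for 24 hr, a cytokine that turns macrophages towards alternative activation, and 3 control samples received PBS for 24 hr. All were plated on poly-L-lysine, and each was hybridised to its own single-colour Agilent array. BV2 is 1 line, and whether the replicates were separate cultures is not stated in the labels, so every error and p-value covers only the spread among these samples, which can be technical.

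IL-10 is an anti-inflammatory cytokine. It binds a receptor of the ligand-binding chain IL-10RA and the shared chain IL-10RB, which signals through JAK1, TYK2 and STAT3 and dampens inflammatory gene expression in macrophages. IL-15 is unusual in that the cell that makes it presents it on its own IL-15RA chain to neighbouring cells. Those cells read it with the IL-2 receptor beta chain and the common gamma chain, through JAK1, JAK3 and STAT5, and it sustains natural killer cells and memory T cells.

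Levels are given as processed signal, a linear brightness not scaled between arrays, and as relative level, the log2 of that signal minus the 75th percentile of its array. Differences are between relative levels. Arrays that share a scan record in the file headers are called a slide here: slide 1 held IL-4 replicates 1, 2 and 3 with PBS replicate 1, and slide 2 held PBS replicates 2 and 3. The 75th percentile of the signal was 674 to 876, 87.9% to 98.0% of the probes on an array were well above background, and no spot was saturated. Over the 35979 probes tested, arrays of the same slide correlated at 0.994 to 0.998 and arrays of different slides at 0.979 to 0.989. A set of 14 bright control spots had a median signal of 19790 to 31100 on slide 1 and of 4559 and 4670 on slide 2. Since no IL-4 array lay on slide 2, each difference is also given against PBS replicate 1 of the same slide, a single array. Arg1, encoding arginase 1 and widely used to mark the IL-4 response, rose by 2.02 ± 0.16 (SE; adjusted p = 0.011, limma) and was 2.29 higher than in PBS replicate 1.

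Il15 was lower with IL-4, and most of that difference was present within 1 slide. The processed signal of its probe, A_52_P15461 (transcript NM_008357), was 95.5, 133 and 103 on the IL-4 arrays and 197, 156 and 192 on the PBS arrays. All 3 IL-4 arrays lay below all 3 PBS arrays. The relative levels were -2.93, -2.69 and -2.83 with IL-4 and -2.15, -2.11 and -1.92 with PBS, in the order of the replicates. The group means were -2.82 ± 0.12 and -2.06 ± 0.12 (SD, n = 3 each), a difference of -0.76 ± 0.11 (SE), or 1.69-fold lower. Against PBS replicate 1 alone the difference was -0.66, or 1.58-fold lower, while PBS replicate 1 itself stood -0.14 from the mean of the other PBS arrays. For Il15 the PBS arrays of both slides thus differed less than the groups did within slide 1. With a background correction that adds an offset (normexp), the difference against PBS replicate 1 was -0.40 or -0.44, depending on the scaling.

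Il10 was higher with IL-4, but the PBS arrays themselves were split by slide. IL-10 is the ligand of the other receptor pair, and its probe, A_51_P430766 (transcript NM_010548), is printed 10 times on each array. The mean signal over those copies was 166, 191 and 180 on the IL-4 arrays and 156, 76.6 and 72.1 on the PBS arrays. PBS replicate 1 lay close below the IL-4 arrays, and PBS replicates 2 and 3 lay below every array of slide 1. The relative levels were -2.13, -2.16 and -2.03 with IL-4 and -2.49, -3.14 and -3.33 with PBS. The SD was 0.07 among the IL-4 arrays and 0.44 among the PBS arrays. The groups did not overlap, and the difference was 0.88 ± 0.20 (SE), or 1.84-fold higher. Against PBS replicate 1 it was 0.39, or 1.31-fold, and PBS replicate 1 was in turn 0.74, or 1.67-fold, above the mean of PBS replicates 2 and 3. That step between arrays of the same treatment was thus larger than the IL-4 difference within slide 1. Of all tested genes, 1680 (5.67%) had PBS replicate 1 at least as far above the other PBS arrays as Il10 did. Without PBS replicate 1 the Il10 difference was 1.13, and over the other arrays left out in turn it was 0.71 to 0.91.

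The copies of the Il10 probe show how well each array measured it. Without the copies that carried an outlier flag, 9 or 10 copies remained per array. Their median signal was 167, 191 and 179 on the IL-4 arrays, 157 on PBS replicate 1, and 75.1 and 73.6 on PBS replicates 2 and 3. The SD of log2 signal among copies was 0.05 to 0.13, smaller than the step between the PBS arrays. Every copy on slide 1 lay between 148 and 205 and every copy on slide 2 between 65.1 and 86.0. These signals are not scaled between arrays. In relative level the copies lay at -2.27 to -1.91 on the IL-4 arrays and at -2.57 to -2.42 on PBS replicate 1. On slide 2 they lay at -3.48 to -2.97. Copies on 1 array measure the same RNA, so they bear on the precision of that array and not on the spread between samples.

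**Figure D1:**
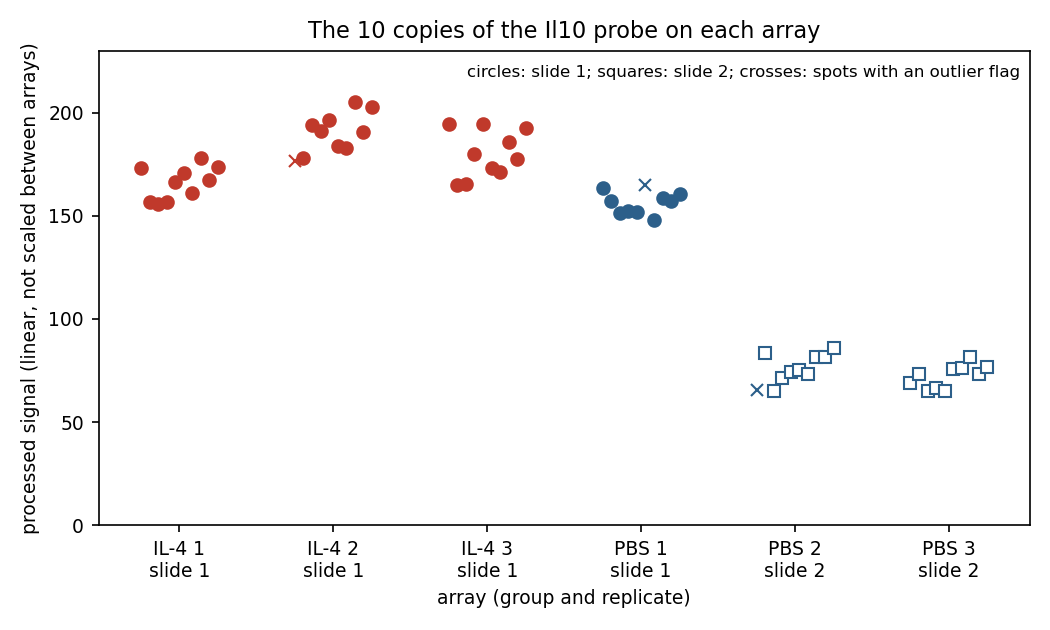
Processed signal (linear, not scaled between arrays) of each of the 10 copies of the Il10 probe, by array; circles are slide 1, squares are slide 2, red is IL-4, blue is PBS and crosses are copies with an outlier flag. Copies on the 4 arrays of slide 1 sit between 148 and 205, PBS replicate 1 included, and those on the 2 arrays of slide 2 between 65.1 and 86.0.

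Il10ra, the ligand-binding chain of the IL-10 receptor, did not separate the groups. Its probe A_51_P235984 (transcript NM_008348) had relative levels of -3.07, -3.03 and -2.80 with IL-4 and -2.93, -2.81 and -2.72 with PBS. IL-4 replicate 3 lay above PBS replicate 1, so the groups overlapped. The difference was -0.15 ± 0.12 (SE), and -0.039 against PBS replicate 1, where its sign turned under 1 alternative (0.041 with normexp and the 75th percentile).

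Il10rb encodes the chain that the IL-10 receptor shares with receptors of IL-22 and of the lambda interferons. Its probe A_55_P2181109 (transcript NM_008349) had a signal of 988, 1041 and 873 with IL-4 and of 1212, 1195 and 1443 with PBS. The relative levels were 0.44, 0.28 and 0.25 with IL-4 and 0.47, 0.83 and 0.99 with PBS. All IL-4 arrays lay below all PBS arrays, but IL-4 replicate 1 and PBS replicate 1 were 0.44 and 0.47. The difference of -0.44 ± 0.15 (SE), or 1.35-fold lower, came to -0.14 against PBS replicate 1. PBS replicate 1 stood -0.44 from the other PBS arrays, as far as the groups stood from each other.

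Il15ra, the chain that presents IL-15, had 2 probes of different transcripts, and these disagreed in direction. They also differed widely in signal, and why they did was not tested. The brighter one stood for the gene among all tested genes. Probe A_55_P2060707 (transcript NM_133836) had a signal of 26904, 31586 and 29076 with IL-4, 31450 on PBS replicate 1 and 18307 on PBS replicate 3. Its spot on PBS replicate 2 carried an outlier flag, so 5 arrays were used. The relative levels were 5.21, 5.20 and 5.31 with IL-4 and 5.17 and 4.66 with PBS. The difference was 0.33 ± 0.17 (SE), against 0.076 within slide 1 and 0.076 without PBS replicate 3, which leaves the same arrays. Within slide 1 its sign turned with the background correction or the scaling, over a range of -0.05 to 0.09. Probe A_55_P2041738 (transcript NM_008358) had a signal of 109, 137 and 133 with IL-4 and of 147, 126 and 172 with PBS. Its relative levels were -2.74, -2.65 and -2.46 with IL-4 and -2.57, -2.42 and -2.07 with PBS, and the groups overlapped. Its difference was -0.26 ± 0.15 (SE), and -0.043 within slide 1. With the mean of both probes the difference was 0.019. Neither probe therefore placed the IL-4 arrays clear of PBS replicate 1 by more than the 0.10 and 0.27 that the 3 IL-4 arrays of the same probes spanned.

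**Figure D2:**
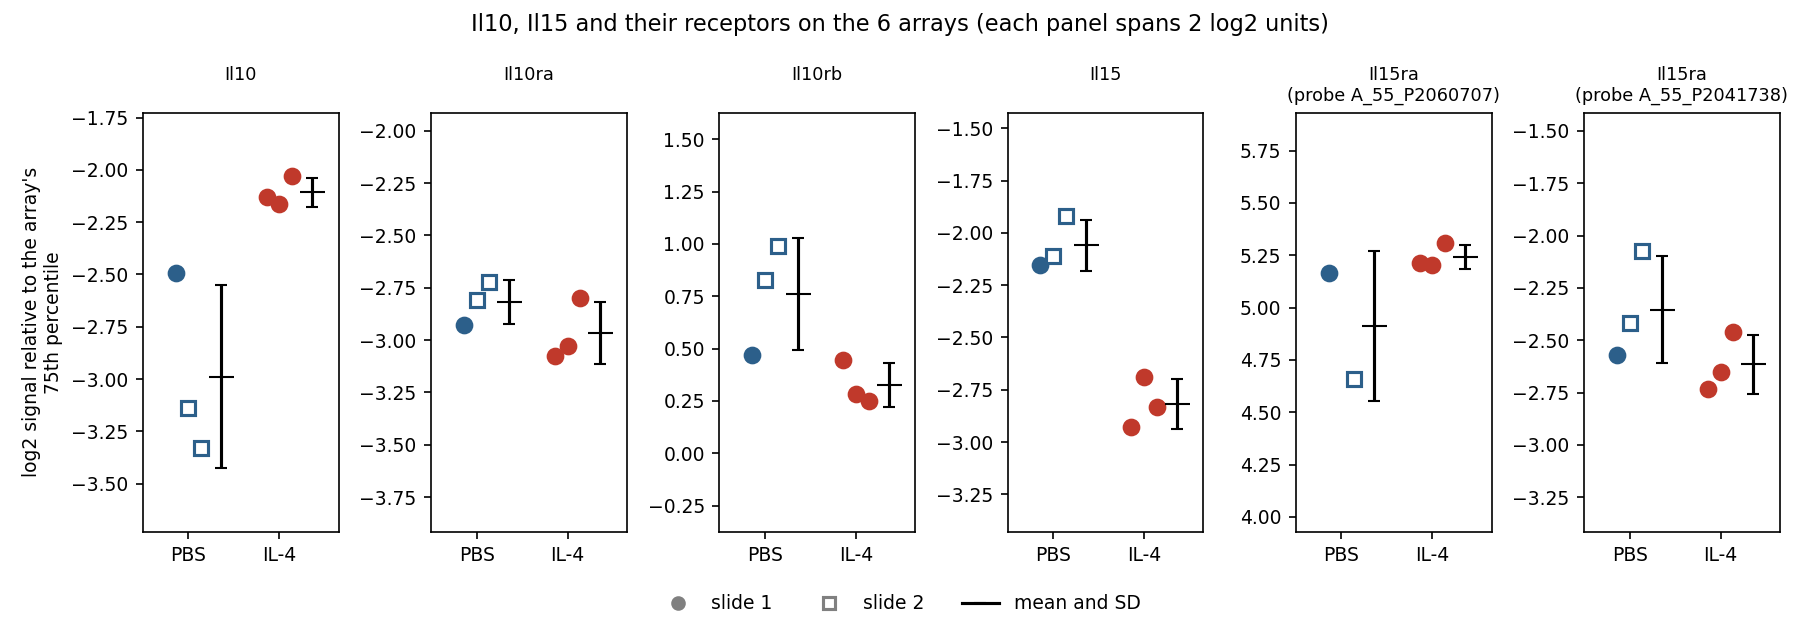
Relative level (log2 signal minus the 75th percentile of the array) of the 6 probes on each array, PBS in blue and IL-4 in red, circles for slide 1 and squares for slide 2, with the mean and SD of each group; every panel spans the same range of 2 log2 units. For Il15 PBS replicate 1 sits with the other PBS arrays, at -2.15 against -2.11 and -1.92, while for Il10 it sits between them and the IL-4 arrays, at -2.49 against -3.14 and -3.33.

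The 2 probes of Il15ra belong to different transcripts, and the RefSeq promoter table (GRCm38.p6) lists 2 start sites for the gene, so both windows are shown for their regulatory sequence. Which start belongs to which probe was not determined. Each window runs from 250 bases before to 50 bases after the start on the plus strand, and capitals mark matches to the motifs searched. The first is chr2:11705043-11705342 and the second, which begins 419 bases further on, is chr2:11705462-11705761.
Il15ra, first start: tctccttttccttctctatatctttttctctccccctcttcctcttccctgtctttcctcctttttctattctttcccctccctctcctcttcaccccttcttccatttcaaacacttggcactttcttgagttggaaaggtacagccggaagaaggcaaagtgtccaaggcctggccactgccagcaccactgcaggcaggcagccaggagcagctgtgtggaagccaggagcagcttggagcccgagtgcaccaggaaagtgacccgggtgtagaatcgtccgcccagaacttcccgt
Il15ra, second start: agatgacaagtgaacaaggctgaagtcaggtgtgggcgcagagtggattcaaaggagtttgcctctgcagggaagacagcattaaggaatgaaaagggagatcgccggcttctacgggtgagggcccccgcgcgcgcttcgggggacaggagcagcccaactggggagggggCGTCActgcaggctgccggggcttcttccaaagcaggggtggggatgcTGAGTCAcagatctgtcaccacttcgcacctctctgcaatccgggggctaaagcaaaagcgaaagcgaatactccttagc
Of 6 motifs searched on both strands, the first window held none and the second held 2. They were a core of the CRE (TGACG, on the minus strand at -78 to -74 from the start) and an AP-1 site (TGANTCA, at -30 to -24, which reads the same on both strands). The share of all 32851 windows that held each was 20.8% and 7.81%. No match was found for NF-kB (GGGNNTTTCC, in 1.63% of windows), the core of the interferon-stimulated response element (GAAANNGAAA, 3.44%), the GAS element (TTCNNNGAA, 8.3%) or the STAT6 element (TTCNNNNGAA, 6.95%). A match describes letters in these windows and is not shown to be a site. The other 4 genes had no matching entry.

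The 5 genes are next set beside all tested genes. The limma fit over all 6 arrays called 997 of 29752 genes (3.35%) at an adjusted p under 0.05, 240 higher (0.807%) and 757 lower (2.54%) with IL-4. Among the 5 genes it called 1, Il15. As the genes were chosen with this contrast known, the count is a description and carries no test. It also moved with the processing: Il10 and Il15 were called with quantile normalization, with scaling to the median and with both normexp settings, where 5.82% to 13.6% of all genes were called, and none of the 5 was called with no filter on dim probes (0.0462% of all genes). The groups did not overlap for Il10, Il10rb, Il15 and the first-named Il15ra probe on the arrays used, and 38.5% of all tested genes did not overlap either, 18.7% with every IL-4 array above and 19.8% with every IL-4 array below. With slide as a block, 9 genes (0.0303%) were called and none of the 5 was. Leaving out any array but PBS replicate 1 left 0 to 3 calls over all genes and none of the 5. Without PBS replicate 1, when each group lay on a slide of its own, there were 12654 calls (42.6%), Il10, Il10rb, Il15 and Il15ra among them. The median difference over all genes was -0.05 between groups, 0.01 within slide 1, and -0.08 between PBS replicate 1 and the other PBS arrays.

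**Figure D3:**
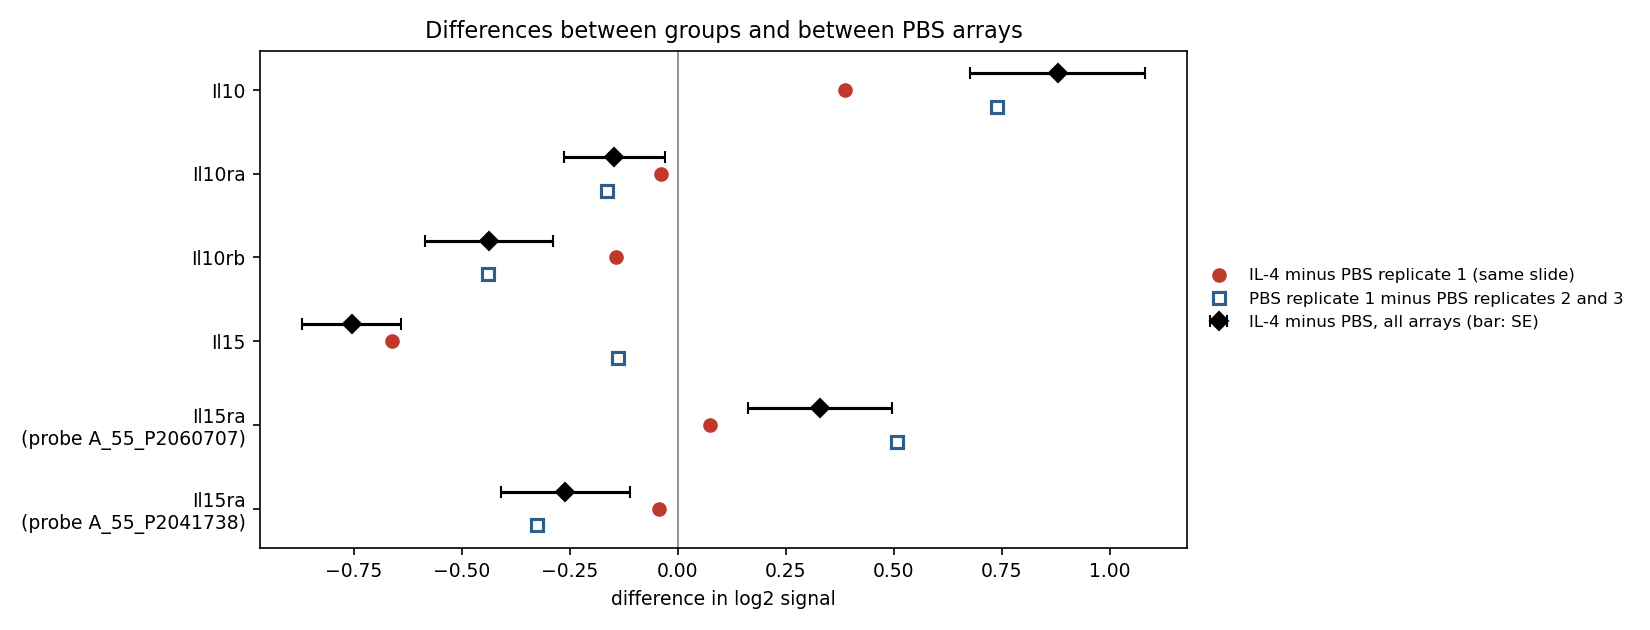
Differences in relative level (log2) for the 6 probes: IL-4 minus PBS over all arrays used (diamonds, bars SE), IL-4 minus PBS replicate 1 of the same slide (circles), and PBS replicate 1 minus the mean of PBS replicates 2 and 3 used (squares). Only for Il15 among the 6 probes is the within-slide difference (-0.66) larger in size than the step between PBS arrays (-0.14).

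The genes around both cytokines were taken from 7 lists set by known role. Of their 71 tested genes out of 75, 3 rose, 4 fell and 64 did not pass (over all genes, 3.35% were called). Their median difference was -0.08, and 0.02 against PBS replicate 1. An unadjusted p under 0.05 (limma) was met by 27 of the 71, against 34.1% of all tested genes. Each of the 7 calls, for Socs1, Zfp36, Il9, Maf, Crtc3, Ifnar1 and Ifnar2, was lost with slide as a block, and 0 of the 71 were called when any array but PBS replicate 1 was left out. Without PBS replicate 1, 13 of the 71 were called higher and 19 lower, where 19.6% and 23% of all tested genes were.

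Among the 6 genes that relay or restrain IL-10 receptor signals, 1 rose, 0 fell and the median difference was -0.06, or 0.02 within slide 1. Socs1, an inhibitor of JAK kinases, had relative levels of -1.68, -1.88 and -1.89 with IL-4 and -2.71, -3.10 and -3.16 with PBS. All IL-4 arrays lay above all PBS arrays. Socs1 rose by 1.17 ± 0.14 (SE; adjusted p = 0.025, limma), and was 0.89 above PBS replicate 1 (adjusted p = 0.13 with slide as a block). Socs3, the inhibitor that STAT3 induces, had a difference of 0.45 ± 0.16 (SE; adjusted p = 0.10, limma), and one of 0.76 within slide 1, since PBS replicate 1 was the lowest PBS array. The kinase genes Jak1 and Tyk2 had differences of -0.20 ± 0.11 and 0.08 ± 0.10, and Stat3 of -0.21 ± 0.12 (SE), with limma adjusted p of 0.22, 0.55 and 0.26. Within slide 1 these came to -0.07, 0.02 and 0.02.

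Of 12 genes that IL-10 is known to induce in macrophages, 1 rose and 0 fell, with a median difference of -0.04. Within slide 1 the median was 0.19, and the median step between PBS replicate 1 and the other PBS arrays was -0.28. The gene that rose was Zfp36, which encodes tristetraprolin, a protein that marks cytokine mRNAs for decay. Its relative levels were 0.83, 0.57 and 0.57 with IL-4 and 0.08, -0.10 and -0.14 with PBS. Zfp36 rose by 0.71 ± 0.12 (SE; adjusted p = 0.035, limma) and was 0.57 above PBS replicate 1 (adjusted p = 0.24 with slide as a block). Of 10 regulators of Il10 transcription, 0 rose, 2 fell and the median was -0.33, the lowest of the 7 lists. Its median was -0.10 within slide 1, and its median step between PBS replicate 1 and the other PBS arrays was -0.28. The genes that fell were Maf, a transcription factor that activates Il10, at -0.66 ± 0.13 (SE), and Crtc3, a coactivator of CREB, at -0.55 ± 0.10 (adjusted p = 0.044 and 0.041, limma). Maf had relative levels of -1.54, -1.39 and -1.43 with IL-4 and -1.02, -0.77 and -0.60 with PBS. Within slide 1 the differences were -0.44 for Maf and -0.43 for Crtc3, with adjusted p = 0.32 and 0.26 with slide as a block. Maf and Crtc3 thus moved opposite to Il10, but the list was mixed. For 3 of its 10 genes every IL-4 array lay above every PBS array, and for 6 below. Over all tested genes these shares were 18.7% and 19.8%. At an unadjusted p under 0.05 (limma), 8 of the 10 passed, against 34.1% of all tested genes. The other cytokines and receptors of the IL-10 family gave 0 calls among 9 tested of 11 genes in the limma fit (2 at an unadjusted p under 0.05, which 34.1% of all tested genes met). The median of the 9 was 0.14, or 0.09 within slide 1.

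**Figure D4:**
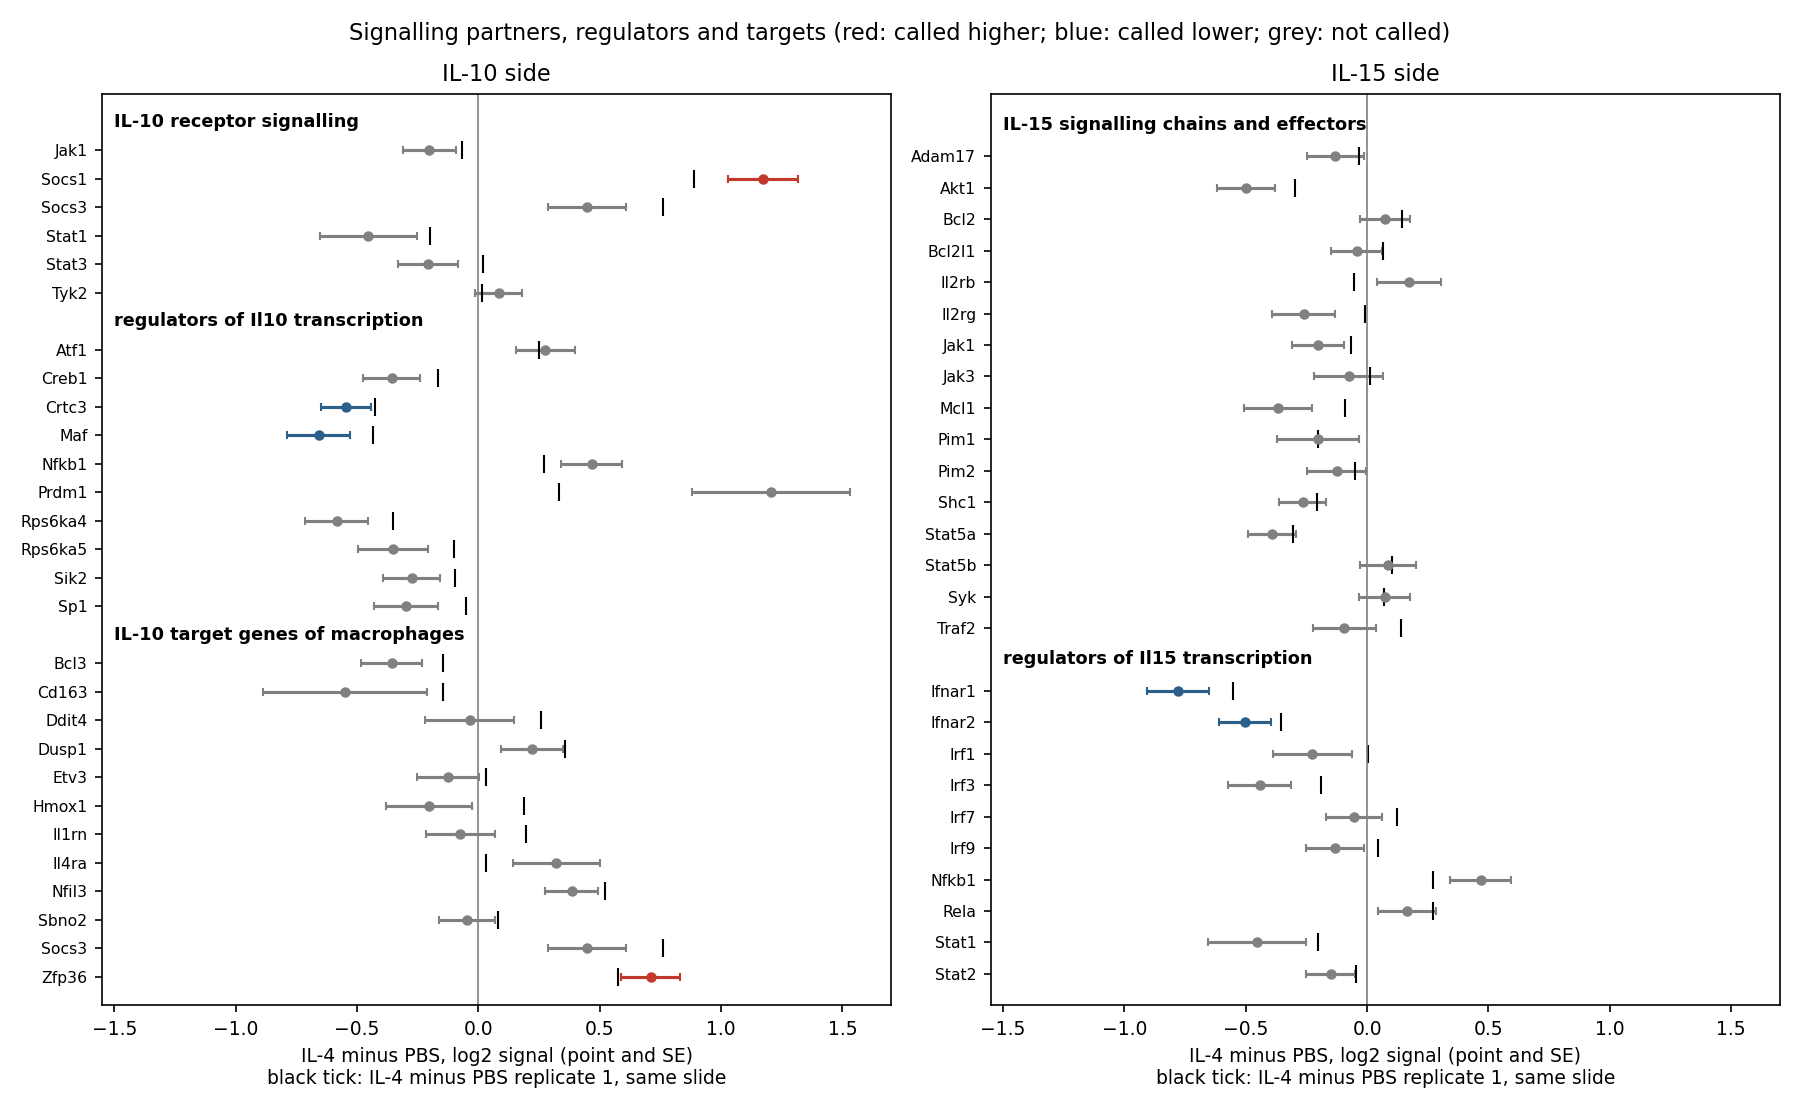
IL-4 minus PBS difference in relative level (log2; point and SE) for the tested genes of 5 of the 7 lists, red where called higher, blue where called lower, grey where not called; black ticks are IL-4 minus PBS replicate 1 of the same slide. Genes in more than 1 list appear in each; Socs1 and Zfp36 are the red points and Maf, Crtc3, Ifnar1 and Ifnar2 the blue ones, and the tick lies nearer 0 than the point for each of these 6.

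None of the 16 genes that carry the IL-15 signal in a responding cell passed the limma test (4 at an unadjusted p under 0.05, against 34.1% of all genes). The median of the 16 was -0.13, or -0.04 within slide 1. Il2rb and Il2rg, the receptor chains that read IL-15, had differences of 0.17 ± 0.13 and -0.26 ± 0.13 (SE; adjusted p = 0.37 and 0.19, limma). Against PBS replicate 1 these were -0.05 and -0.01. The kinase gene Jak3 had -0.08 ± 0.14 and the effector genes Stat5a and Stat5b had -0.39 ± 0.10 and 0.09 ± 0.11 (SE; adjusted p = 0.72, 0.059 and 0.60, limma). The sign for Stat5b turned with quantile normalization (-0.13), normexp with quantile (-0.10), the authors' deposited values (-0.13) and the mean of its probes (-0.22). Stat5a was lower on every IL-4 array than on every PBS array, at -0.02 to 0.10 against 0.33 to 0.50, as were 19.8% of all tested genes. Within slide 1 it differed by -0.30 (adjusted p = 0.42, limma with slide as a block). Quantile normalization, normexp with quantile and the authors' deposited values called Stat5a (adjusted p = 0.045, 0.046 and 0.046, limma). Those settings called 7.73% to 10.4% of all genes.

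Among 10 regulators of Il15 transcription, which include interferon regulatory factors and the interferon receptor, 0 rose and 2 fell. The median of the 10 was -0.19, or -0.02 within slide 1. The 2 that fell were Ifnar1 and Ifnar2, both chains of the type I interferon receptor. Ifnar1 had relative levels of -0.27, -0.10 and -0.16 with IL-4 and 0.38, 0.75 and 0.68 with PBS. Ifnar1 fell by 0.78 (SE 0.13; adjusted p = 0.033, limma) and was -0.55 from PBS replicate 1 (adjusted p = 0.20 with slide as a block). With the mean of its probes the difference was -0.29. Ifnar2 had relative levels of 0.59, 0.53 and 0.56 with IL-4 and 0.91, 1.09 and 1.18 with PBS. Ifnar2 fell by 0.50 (SE 0.11, adjusted p = 0.049, limma) and was -0.35 from PBS replicate 1 (adjusted p = 0.34 with slide as a block). For both genes PBS replicate 1 was the lowest PBS array, at -0.34 and -0.22 from the mean of the other PBS arrays.

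Of 13 tested genes for other cytokines and receptors of the common gamma chain family, 1 rose and 0 fell. The median of the 13 was 0.12, or 0.03 within slide 1. Il9, a cytokine of T cells and mast cells, had relative levels of -3.76, -3.81 and -3.82 with IL-4 and -4.23, -4.34 and -4.33 with PBS. Il9 rose by 0.50 ± 0.09 (SE; adjusted p = 0.040, limma) and was 0.44 above PBS replicate 1 (adjusted p = 0.24 with slide as a block). With normexp its difference was 0.19 or 0.22 and it was not called (adjusted p = 0.31 and 0.098).

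The genes whose relative levels over the 6 arrays were most like those of Il15 were Mirt1, Hltf, Lockd, Plpp6 and Lpar6. Their Pearson correlations with Il15 were 0.998, 0.997, 0.997, 0.995 and 0.995 over these arrays, of which 3 share the IL-4 treatment and 4 the slide. Such values were common: 699 of 18990 named genes measured on all 6 arrays had a correlation of 0.95 or above. The 5 differed between groups by -0.34 to -0.57, less than Il15 did. As they were chosen for following Il15, whose levels separate the groups, these differences are a description with no test. They came to -0.30 to -0.51 within slide 1.

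Markers of cell types were read on the same arrays, although the samples were of 1 line, BV2, and no label used names a mixture of cell types. All 12 markers of microglia and macrophages were well above background on every array, as were 6 of 7 tested markers of T, NK and B cells, so detection alone did not separate the cell types. Of the 12, 0 rose and 3 fell, Aif1, Tyrobp and Lyz2, where 2.54% of all tested genes were called lower. These 3 differed by -0.72, -0.95 and -0.81, and by -0.49, -0.54 and -0.55 within slide 1. PBS replicate 1 itself stood -0.34, -0.62 and -0.39 from the mean of the other PBS arrays. The median difference of the 12 was -0.44, against -0.23 within slide 1. Their median step between PBS replicate 1 and the other PBS arrays was -0.34. An unadjusted p under 0.05 (limma) was met by 7 of the 12, against 34.1% of all genes. The median relative level of the 12 was -0.78 to -0.68 on the IL-4 arrays and -0.34 to 0.08 on the PBS arrays. None of the 7 markers of T, NK and B cells was called in the limma fit (3 at an unadjusted p under 0.05, against 34.1% of all genes), with a median difference of 0.31 and a step of 0.38 between PBS replicate 1 and the other PBS arrays. Their median relative level was -2.74 to -2.53 with IL-4 and -2.84 to -2.80 with PBS. Of the markers of astrocytes, neurons and oligodendrocytes, 11 were tested and the limma fit called 0 (1, 1 and 2 at an unadjusted p under 0.05). The part of these markers in the differences of Il10 and Il15 was not tested.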

How the data were processed

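RNA of 6 samples of BV2 cells, 3 with IL-4 and 3 with PBS, was measured on single-colour Agilent arrays, and groups and replicate numbers came from the labels. The design text calls the control untreated, and the PBS of the sample labels was used. A description label that mentions human blood goes against the other labels and was not used. The deposited scanner files hold linear intensity values that, per the file headers, Agilent Feature Extraction (version 11.0.1.1) had background subtracted; they are not scaled between arrays. The authors also deposited a table of log2 values made by a normalization not given in the sources used here; it served as an alternative.

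Control spots and spots with an outlier flag (87 to 394 per array) were left out, copies of a probe were averaged, and the log2 signal was set relative to the 75th percentile of its array. A probe with no unflagged copy on an array was missing there (6 to 250 probes per array). The test took the 35979 probes that were well above background on all arrays of either group, and a gene was represented by its brightest such probe. Symbols came from a RefSeq table of GRCm38.p6, which named 27234 probes (69.1%). The files give another build for their probes, so no coordinates of probes or genes are printed; the promoter windows of Il15ra carry the coordinates of the RefSeq promoter table, in its own build. limma 3.58.1 (lmFit, eBayes; R 4.3.3) compared the groups with no block, adjusted by Benjamini-Hochberg over all 29752 genes or unnamed transcripts. A gene was called at an adjusted p under 0.05. SE comes from the fit, SD from a group's arrays. The steps were tested on simulated data.

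The 5 genes, the pathway and marker lists and the tests were chosen with earlier results of these data known. Differences of the 5 genes are therefore given with no p-value. The genes named are those 5, Arg1, Jak1, Tyk2, Stat3, Socs3, Jak3, Il2rb, Il2rg, Stat5a and Stat5b, every called gene of a pathway list, and the 5 genes most correlated with Il15. The called markers are named because they were few, after their values were seen. Replicate numbers were not taken to pair the samples. The deviations of same-numbered arrays from their group means correlated at 0.08, -0.02 and 0.29. Those of differently numbered IL-4 and PBS arrays correlated at -0.19 to 0.06. With 3 arrays a group and the PBS arrays on both slides, these values cannot settle whether the numbers pair the samples. The alternatives were other scalings, normexp background correction with an offset of 50, the deposited table, no filter on dim probes, the mean of the probes of a gene, slide or replicate number as a block, slide 1 alone, and leaving out each array. Keeping flagged spots, and the difference within slide 1 under other scalings, were added after seeing the data. The files hold no mean signal, so normexp used the median signal of each spot.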

Additional observations from a re-analysis of the deposited data

How the results depend on the processing

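The direction of IL-4 minus PBS held for each of the 6 probes of the 5 genes under every alternative run for single probes. Against PBS replicate 1 it turned under another background correction or scaling for Il10ra (0.041) and the NM_133836 probe of Il15ra (down to -0.05). On slide 1 alone, and equally with slide as a block, the difference of Il10 was 0.39, that of Il10rb -0.14 and that of the NM_008358 probe of Il15ra -0.043. With normexp, Il10 was 0.55 (75th percentile) or 0.56 (quantile) and Il15 -0.54 or -0.56. With the mean of the probes of a gene, Il15ra was 0.019. The counts moved with most choices. Against 240 higher and 757 lower over all genes, quantile normalization gave 833 and 1804, scaling to the median 531 and 1202, the 75th percentile of detected probes 107 and 416, normexp with the 75th percentile 2032 and 2026, normexp with quantile 988 and 2108, and the values the authors deposited gave 674 and 1625. No filter on dim probes gave 5 and 10, the mean of probes 132 higher, slide as a block 6 and 3, slide 1 alone 1 and 0, and flagged spots kept, added after seeing the data, 127 higher. Against 3 higher and 4 lower among the pathway genes, 8 were lower with quantile normalization, 1 with the 75th percentile of detected probes, 9 with normexp and quantile, 8 with the authors' table, 1 with the mean of probes and 2 with flagged spots kept. Normexp with the 75th percentile called 5 and 7, and 0 and 0 were called with no filter, with slide as a block and on slide 1 alone. The replicate block, for which a pairing was not established, gave 1804 and 1966 over all genes and 6 and 7 among pathway genes. Il10 and Il15 were both called with it, with quantile normalization, with scaling to the median and with both normexp settings. With no filter on dim probes, with slide as a block and on slide 1 alone, Il15 was no longer called. Leaving out 1 array gave 0 to 5812 higher and 0 to 6842 lower over all genes, and 0 to 13 and 0 to 19 among pathway genes, each highest without PBS replicate 1. The values are limited by 3 arrays a group and by a control group spread over both slides. They are also limited by low signals for Il10, Il10ra, Il15 and the NM_008358 probe of Il15ra. Normexp moved the size of the difference for Il10 and Il15. The cause of these changes was not tested.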
